A study of Mus musculus with 6 samples.

Results

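The genes described here encode the nuclear subunits and assembly factors of the mitochondrial respiratory chain and ATP synthase, in mouse macrophages kept with or without whole-glucan particles (WGP, particles of yeast cell wall glucan). Members were all genes whose symbol starts with Nduf, Uqcr, Atp5 or Cox followed by a digit, together with Cyc1 and Cycs. The RefSeq gene table held 123 such genes, of which 20 were pseudogenes. A probe on the array could be named for 100 of them through its RefSeq accession, and 92 were measured, meaning that a probe was well above background on both independent arrays of at least 1 group. They were 92 of the 10948 genes tested. Cox10, Cox17, Cox18, Cox7b2, Cox8b, Cox8c, Ndufaf8 and Ndufc1 had no probe past that filter, and Ndufb1, Ndufb4b, Ndufb4c and the 20 pseudogenes had no named probe. Of the 92 measured genes, 91 were well above background on all 4 independent arrays, and Ndufa4l2 was so on both medium arrays and on 1 of 2 WGP arrays. Whether transcripts of the pseudogenes bind the members' probes was not tested.

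Complex I takes electrons from NADH and complex III takes them from reduced coenzyme Q, which also collects electrons from succinate through complex II. Complex III passes them to cytochrome c, a small soluble protein, and complex IV (cytochrome c oxidase) hands them to oxygen. Complexes I, III and IV pump protons across the inner membrane, and ATP synthase lets the protons flow back to make ATP. Most subunits come from nuclear genes and are imported, while a small set of core subunits is made in the mitochondrion, so assembly needs dedicated factors. In macrophages the balance between this pathway and glycolysis is known to shift with the type of activation.

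The cells were macrophages grown from bone marrow and given by the labels as polarized M2, from C57BL/6 mice aged 6 to 8 weeks. They were incubated for 6 h in complete DMEM (the medium group) or in complete DMEM with WGP (the WGP group), and total RNA was hybridised to 1-colour Agilent arrays, with 3 files deposited per group. The labels name neither the polarizing agent nor the WGP dose, and they do not say whether replicates came from separate mice or cultures, so the p-values reflect the spread among these arrays, which may be technical. Replicate 3 of both groups held no hybridization of its own. Medium replicate 3 equalled the average of medium replicates 1 and 2, to within 0.695% at each spot, and WGP replicate 3 equalled WGP replicate 1 multiplied by 1.3, to within 0.488%. Medium replicate 3 was therefore left out and WGP replicate 3 was averaged with WGP replicate 1, which left n = 2 independent arrays per group. Replicate 1 of both groups shared a slide and a scan, and replicate 2 of both groups shared another.

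Each array detected 45.0 to 50.7% of its 39429 probes well above background, the 75th percentile of the signal lay at 85.8 and 68.6 on the medium arrays and at 59.2 and 56.1 on the WGP arrays, and 0 spots were saturated. Of 9 macrophage markers with a probe, 9 were well above background on all 4 arrays (among them Adgre1, Csf1r and Itgam). Of 8 markers of alternatively activated macrophages, 4 were (Mrc1, Clec10a, Mgl2 and Egr2), while Arg1 and Retnla were well above background on 0 of the 4 arrays. Markers of other cells were well above background on all 4 arrays for 4 of 8 neutrophil, 0 of 5 B cell, 3 of 7 T or NK cell, 3 of 5 dendritic cell, 0 of 4 mast cell or basophil, 1 of 4 erythroid or megakaryocyte and 2 of 6 stromal genes. Cd3e, Cd8a and Cd4 were the 3 T or NK cell genes, and their changes did not pass the test (adjusted p = 0.96, 0.22 and 0.20). Other markers did pass it. Mmp8 (log2 change 2.57), Pf4 (2.28), Siglech (1.08) and Ccr7 (0.84) were higher with WGP. Cd79a (-1.03) was lower. Of these, Mmp8 and Cd79a were well above background on 3 of the 4 arrays. Cd79b (-3.24) and Col3a1 (-1.09) also read lower with WGP, but were well above background on only 2 of the 4 arrays. They passed the filter through 1 group only, so they are not counted as passing the test. The size of their changes is uncertain. In such bulk RNA, a change in the number of cells of a type and a change in RNA per cell cannot be told apart.

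A level is given as the log2 processed signal after subtraction of its array's 75th percentile, and a change is the WGP mean minus the medium mean on that scale. A gene is said to rise or fall where limma's adjusted p, by the Benjamini-Hochberg method over all 10948 genes, was under 0.05. With WGP, 25 of the 92 members rose and 7 fell. That was 27.2% and 7.61% of the members, beside 23.2% and 17.4% of all genes tested (40.6% in either direction). The share that rose thus lay near that of all genes, and the share that fell lay under it. The median change of the members was 0.24, beside 0.03 for all genes. Of the 92 members, 66 lay above the median of all genes. Within slide 1 the members' median was 0.20 above that of all genes, and within slide 2 it was also 0.20 above.

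The changes of the members were small beside those of the array as a whole. Their SD was 0.45, beside 0.87 over all genes. The members were also brighter, with a median level in medium of 4.14 beside 0.53 for all genes. Well above background on all 4 arrays were 91 of the 92 members and 9874 of the 10948 genes tested. Whether the smaller changes go with the higher level was not tested. A rise of at least 2-fold was seen in 2 members (Cycs and Atp5md), or 2.17%, beside 8.05% of all genes, and a fall of at least 2-fold in 4 (Ndufa6, Cox6a2, Ndufaf7 and Cox7a2l), or 4.35%, beside 6.67%. The arrays of the groups did not overlap for 76 of the 92 members, beside 75.1% of all genes. Both WGP arrays were higher in 57 of these (40.7% of all genes) and lower in 19 (34.4% of all genes), and the change was below 0 in 26 of the 92 members, beside 48.3% of all genes. Across the 92 members, the changes measured on slides 1 and 2 correlated at r = 0.85, and over all genes at r = 0.85, with each pair of arrays sharing a slide.

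**Figure D1:**
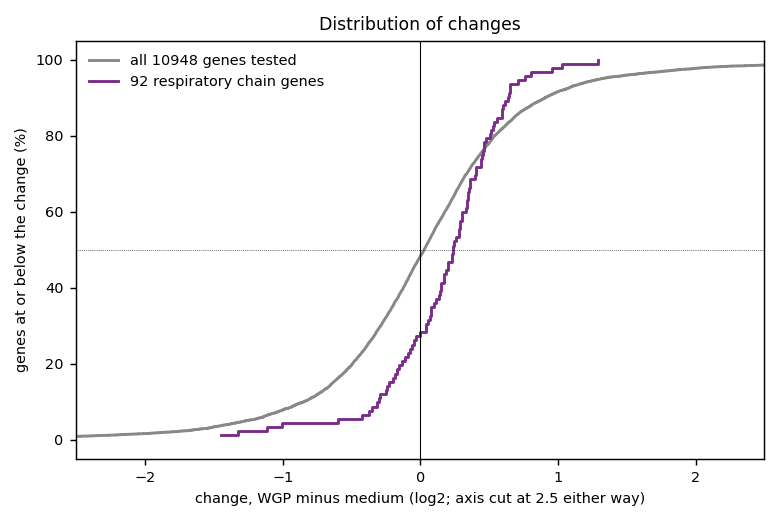
Cumulative distribution of the change between WGP and medium (x axis, log2) for all 10948 genes tested and for the 92 respiratory chain genes (y axis, percent of genes at or below the change). The curve of the members is steeper and crosses 50% at 0.24, to the right of the curve of all genes at 0.03.

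The scale between arrays moved these counts. With the array's median in place of its 75th percentile, the median change of all genes was 0.19, 36 members rose (39.1%, beside 29.2% of all genes) and 4 fell (4.35%, beside 11%), and 72.69% of all changed genes were higher with WGP in place of 57.16%. With the 75th percentile over probes well above background on all arrays, the median of all genes was -0.10, 15 members rose (16.3%, beside 17.9%) and 8 fell (8.70%, beside 22.5%), and 44.26% of changed genes were higher. The members' median stayed 0.21 above that of all genes in these scalings, which shift every gene alike. It was 0.14 above with quantile normalization, where 13 members rose (14.1%, beside 20.3% of all genes) and 9 fell (9.78%, beside 18.0%). It was 0.035 above with normexp background correction and 75th percentile scaling, where 17 members rose (18.5%, beside 20.6%) and 17 fell (18.5%, beside 17.5%). The share that rose was thus below that of all genes in these last 3 settings, and the share that fell was not below it with normexp and 75th percentile scaling. With normexp and quantile normalization, 27 members rose (29.3%, beside 21.4% of all genes) and 17 fell (18.5%, beside 19.1%). With no filter on dim probes 5 of the 32 calls were kept. Of the 32 called members, 0 turned sign in any of the 16 alternatives run, while 25 of the 60 members not called did in at least 1.

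**Figure D2:**
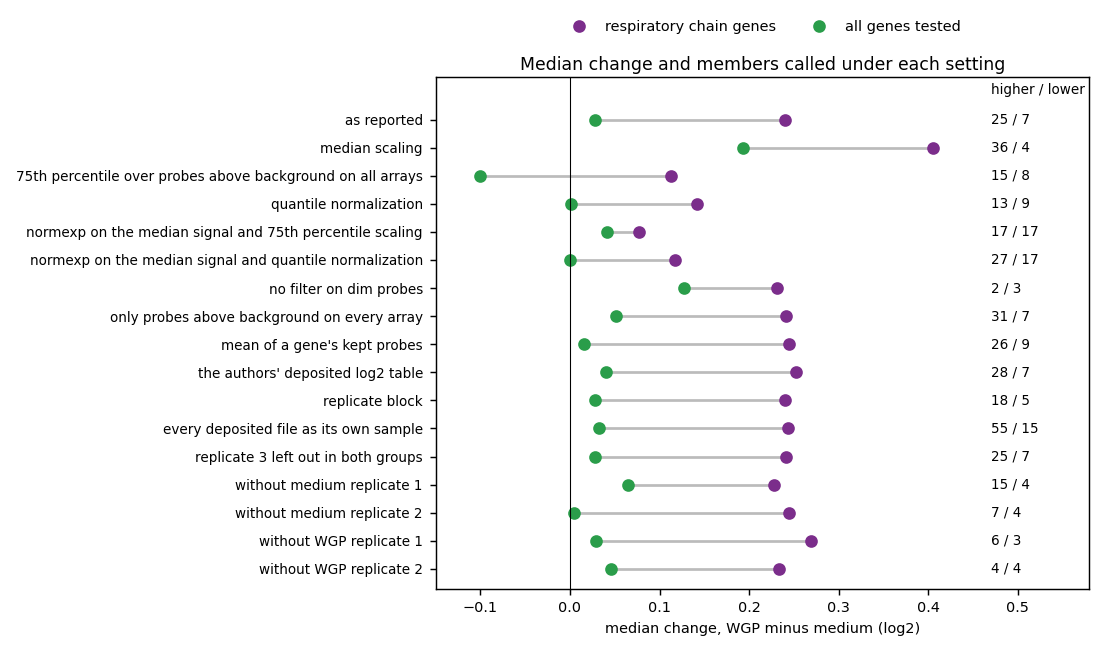
Median change (x axis, log2, WGP minus medium) of the respiratory chain genes and of all genes tested under each setting (y axis), with the number of members that rose and fell. The members' median lies to the right of that of all genes in every setting, by 0.21 as reported and by 0.035 with normexp and 75th percentile scaling.

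The counts by role, on groups of at most 19 genes, stand beside 23.2% of all genes that rose and 17.4% that fell, with a median of 0.03. Of 17 ATP synthase genes 5 rose (29.4%) and 0 fell (median 0.29), and 12 did not pass the test. In complex I, 3 of 16 matrix arm genes rose (18.8%) and 1 fell (median 0.14), 4 of 19 membrane arm genes rose (21.1%) and 0 fell (median 0.18), and 2 of 7 assembly factors rose (28.6%) and 1 fell (median 0.34). Complex III had 3 of 9 that rose (33.3%) and 1 that fell (median 0.25). Of 17 complex IV subunit genes, counting the paralog Ndufa4l2 and the related Cox7a2l, 6 rose (35.3%) and 4 fell (23.5%), with a median of 0.23. Of 6 complex IV assembly factors 1 rose (16.7%) and 0 fell (median -0.02). Cytochrome c, with 1 gene measured, rose. The role groups were not tested against each other.

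**Figure D3:**
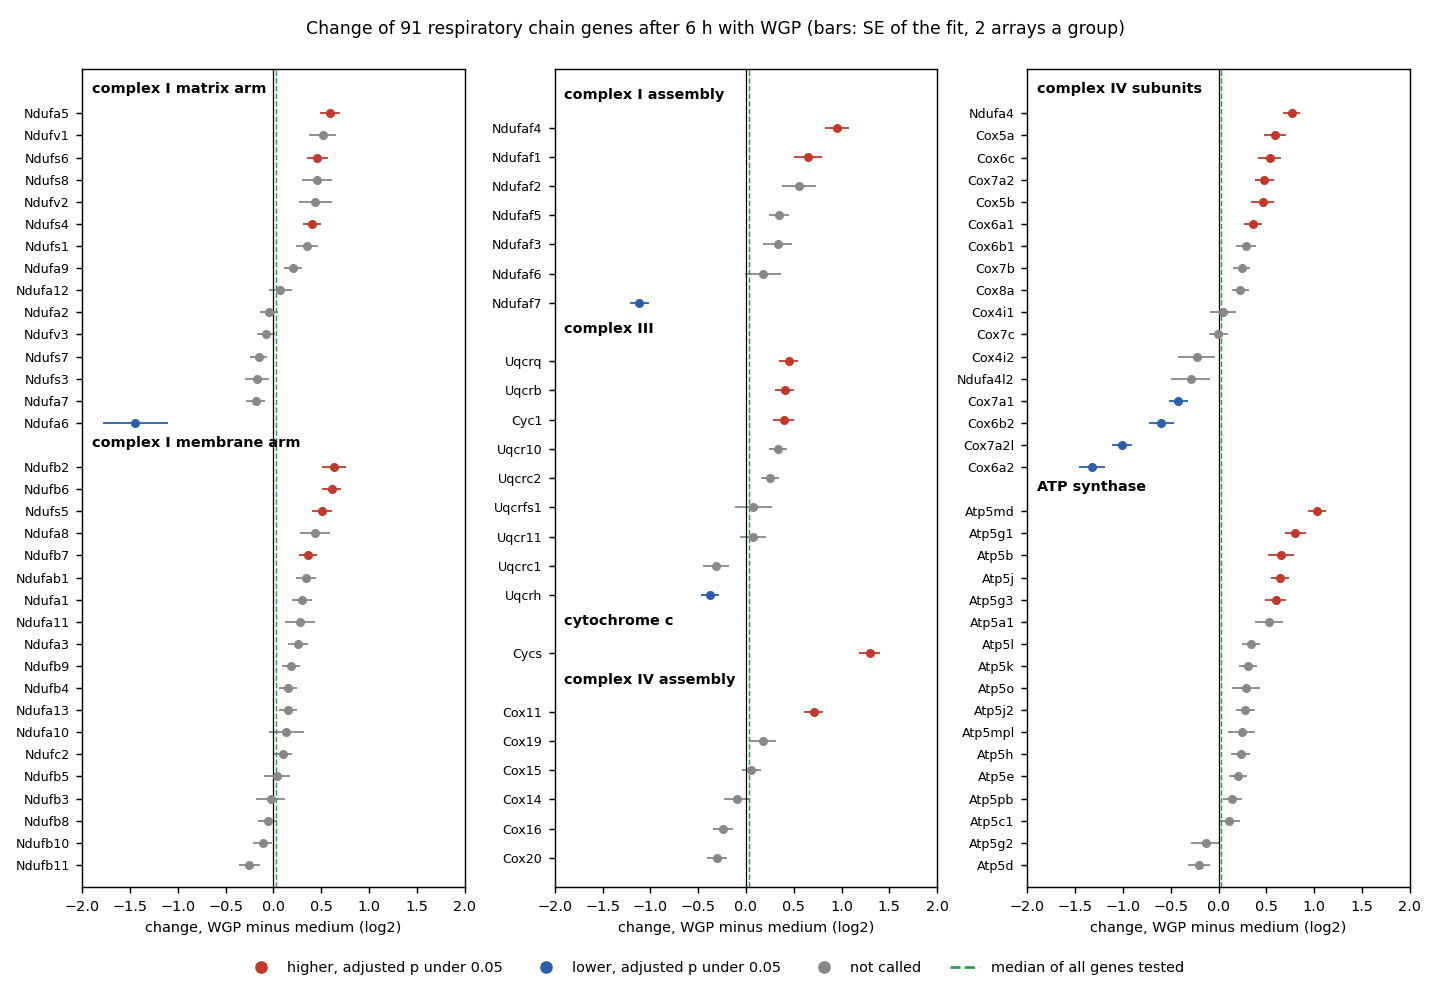
Change of 91 of the 92 members after 6 h with WGP (x axis, log2, WGP minus medium), grouped by role and ordered by change, with bars for the SE of the fit on 2 arrays per group. Red points rose, blue points fell and grey points did not pass the test; the dashed line is the median of all genes at 0.03, and Cycs at 1.29 and Ndufa6 at -1.45 are the extremes.

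Promoter sequences are shown for 6 members on which the results below turn: 3 of those that rose most with a promoter entry (Cycs, Atp5md and Ndufaf4), a pair from the isoform sets of complex IV (Cox6a1, which rose, and Cox7a2l, which fell), and Ndufa6, which had the largest fall. They are RefSeq sequences of GRCm38.p6, each 250 bases before to 50 bases after the gene's start, read 5′ to 3′ along the gene. Their positions are chr6:50566520-50566819 (minus strand) for Cycs, chr19:47090598-47090897 (minus strand) for Atp5md, chr4:24897833-24898132 (plus strand) for Ndufaf4, chr5:115348909-115349208 (minus strand) for Cox6a1, chr17:83514284-83514583 (minus strand) for Cox7a2l and chr15:82354242-82354541 (minus strand) for Ndufa6. Capitals mark matches, on either strand, to GCATGCG (the core of the NRF1 motif) or CCGGAAG (a motif of ETS factors such as GABPA).
Cycs: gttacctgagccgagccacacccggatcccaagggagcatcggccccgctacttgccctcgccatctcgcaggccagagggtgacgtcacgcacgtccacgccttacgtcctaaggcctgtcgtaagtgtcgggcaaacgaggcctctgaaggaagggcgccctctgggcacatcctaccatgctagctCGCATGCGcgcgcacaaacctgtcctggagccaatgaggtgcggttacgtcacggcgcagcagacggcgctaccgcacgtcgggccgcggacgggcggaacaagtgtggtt
Atp5md: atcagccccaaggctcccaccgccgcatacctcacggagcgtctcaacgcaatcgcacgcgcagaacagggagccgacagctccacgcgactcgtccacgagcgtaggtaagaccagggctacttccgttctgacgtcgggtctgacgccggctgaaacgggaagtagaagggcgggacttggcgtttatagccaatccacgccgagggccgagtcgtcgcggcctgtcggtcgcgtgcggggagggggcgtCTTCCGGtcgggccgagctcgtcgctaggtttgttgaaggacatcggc
Ndufaf4: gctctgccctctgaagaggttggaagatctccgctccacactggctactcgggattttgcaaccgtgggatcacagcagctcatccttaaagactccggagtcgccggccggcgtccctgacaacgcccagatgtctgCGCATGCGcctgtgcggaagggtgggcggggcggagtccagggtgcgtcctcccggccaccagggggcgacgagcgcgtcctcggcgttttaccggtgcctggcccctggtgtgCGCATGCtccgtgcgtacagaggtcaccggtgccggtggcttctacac
Cox6a1: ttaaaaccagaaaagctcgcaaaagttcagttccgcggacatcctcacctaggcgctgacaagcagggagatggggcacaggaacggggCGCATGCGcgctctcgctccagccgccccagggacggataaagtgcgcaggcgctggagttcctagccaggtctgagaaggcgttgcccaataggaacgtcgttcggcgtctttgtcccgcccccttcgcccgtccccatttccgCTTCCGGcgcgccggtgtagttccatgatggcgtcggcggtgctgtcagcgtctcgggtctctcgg
Cox7a2l: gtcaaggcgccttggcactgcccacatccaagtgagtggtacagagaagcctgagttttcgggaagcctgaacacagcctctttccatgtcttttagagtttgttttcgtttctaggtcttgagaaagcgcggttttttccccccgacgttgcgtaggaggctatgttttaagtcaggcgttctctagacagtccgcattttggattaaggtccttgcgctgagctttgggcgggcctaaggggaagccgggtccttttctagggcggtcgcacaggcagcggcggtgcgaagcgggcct
Ndufa6: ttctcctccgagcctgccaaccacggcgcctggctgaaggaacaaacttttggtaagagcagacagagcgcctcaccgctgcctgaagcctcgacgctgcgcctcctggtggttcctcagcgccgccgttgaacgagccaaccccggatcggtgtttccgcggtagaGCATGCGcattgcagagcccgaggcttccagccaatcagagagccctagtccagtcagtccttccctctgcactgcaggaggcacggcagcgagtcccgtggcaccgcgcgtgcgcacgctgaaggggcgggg

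NRF1 and GABPA are known activators of nuclear genes of the respiratory chain. In Cycs, Ndufaf4 and Cox6a1 a match on each strand overlapped to form CGCATGCG, which began 61, 112 and 161 bases before the start. The promoter of Ndufa6, which fell, also held GCATGCG, 83 bases before the start, while that of Cox7a2l held neither motif in this window. A promoter entry was found for 76 of the 92 members and for 27025 genes in all, each 300 bases long. GCATGCG occurred in 13 of the 76 members (17.1%) and in 4.01% of all genes, and CCGGAAG in 20 members (26.3%) and in 9.93% of all genes. Matches to AAGGTCA (the motif of ESRRA) were found in 7 members (9.21%) beside 5.38%, and to ACGTG (the core of the HIF motif) in 18 (23.7%) beside 21.8%. GCATGCG was held by 4 of 21 members that rose (19.0%), by 8 of 49 that did not pass the test (16.3%) and by 1 of 6 that fell. For CCGGAAG these counts were 6 of 21 (28.6%), 13 of 49 (26.5%) and 1 of 6. A match is a description of letters and not a site of binding.

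Cytochrome c and ATP synthase held the largest rises. Cycs encodes the somatic cytochrome c, which carries electrons from complex III to complex IV and activates caspases when released to the cytosol. Its level was 2.64 and 2.70 on the medium arrays and 4.04 and 3.88 on the WGP arrays. Both WGP arrays lay far above both medium arrays. The means were 2.67 ± 0.04 in medium and 3.96 ± 0.12 with WGP (SD, n = 2), a change of 1.29 (SE 0.11, adjusted p = 0.00363) or 2.45-fold, with 1.40 within slide 1 and 1.18 within slide 2. A second probe of Cycs gave a change of 1.26. The call was kept in all 16 alternatives, where the change ran from 1.01 to 1.46.

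Atp5md, also known as DAPIT or Usmg5, encodes a small membrane subunit that helps ATP synthase form dimers. Its level stood at 4.07 and 4.14 in medium and 5.11 and 5.16 with WGP, so the groups stood far apart beside the spread within them. The change was 1.03 (SE 0.10, adjusted p = 0.00436), or 2.04-fold, and was 1.05 and 1.02 within slides 1 and 2. It too was called in all 16 alternatives.

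The c ring of ATP synthase, which turns as protons pass, is encoded by 3 genes for the same mature protein. Atp5g1 had levels of 5.75 and 5.58 in medium and 6.42 and 6.52 with WGP, and Atp5g3 5.24 and 5.09 in medium and 5.81 and 5.71 with WGP. For both genes the WGP arrays were above the medium arrays. Atp5g1 rose by 0.80 (SE 0.11, adjusted p = 0.0105) and Atp5g3 by 0.60 (SE 0.11, adjusted p = 0.0192). The third gene, Atp5g2, had 7.81 and 7.65 in medium and 7.74 and 7.45 with WGP, where the groups overlapped, and its change was -0.14 (SE 0.15, adjusted p = 0.499). Whether the 3 changes differ was not tested. In the F1 head and stalk, Atp5b, the catalytic beta subunit, had 5.45 and 5.19 in medium and 6.04 and 5.90 with WGP. Its groups did not overlap and it rose by 0.65 (SE 0.14, adjusted p = 0.0258), and Atp5j, coupling factor 6 of the peripheral stalk, rose by 0.65 (SE 0.09, adjusted p = 0.0113).

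The other 12 ATP synthase genes did not pass the test, and their changes ran from -0.20 (Atp5d, the delta subunit of F1, adjusted p = 0.229) to 0.53 (Atp5a1, the alpha subunit of the F1 head, adjusted p = 0.0529). Other probes of Atp5c1 and Atp5j2 changed with the opposite sign to the brightest probe (-0.12 beside 0.11 and -0.16 beside 0.28), and none of these 4 values passed a fit over probes. Atp5l had 5 probes, whose changes ran from 0.34 to 1.14, and although its brightest probe did not pass, 3 others passed the fit over probes, with changes of 1.14, 0.59 and 0.57 (adjusted p = 0.0197, 0.0288 and 0.0224). When 1 array was left out, Atp5g1 lost its call without WGP replicate 2 (adjusted p = 0.0559), Atp5j without either WGP array (up to 0.0692), and Atp5b and Atp5g3 without medium replicate 2 or either WGP array (up to 0.109 and 0.0981).

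**Figure D4:**
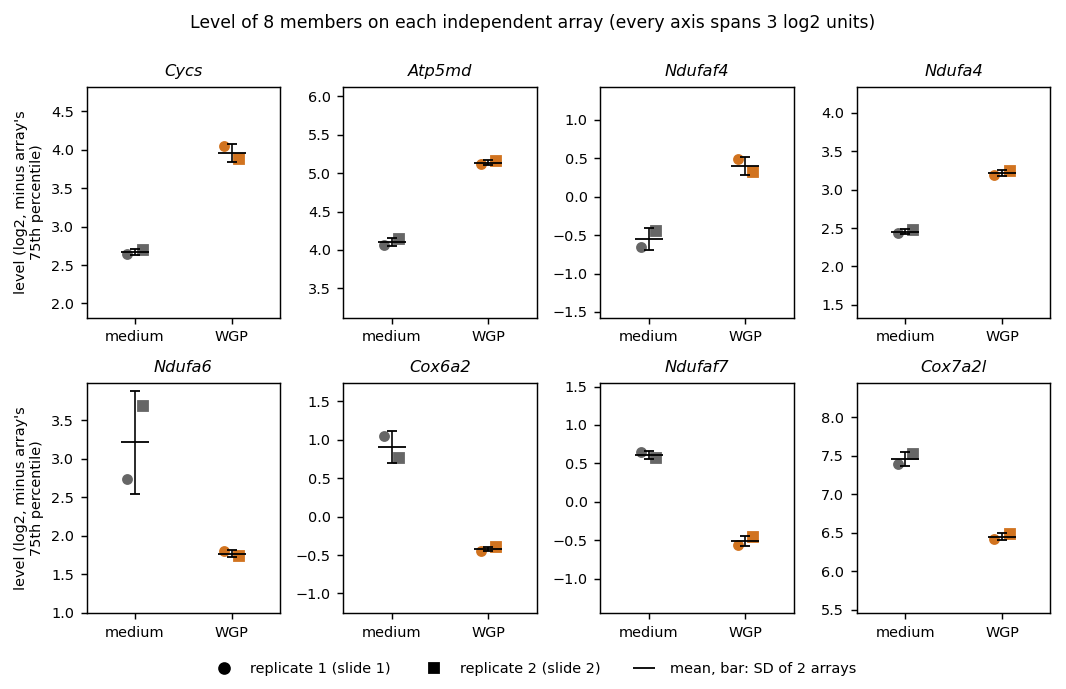
Level (y axis, log2 minus the array's 75th percentile; every axis spans the same range) of 8 members on the 2 medium and 2 WGP arrays, with circles for slide 1, squares for slide 2, and the mean with its SD. Cycs, Atp5md, Ndufaf4 and Ndufa4 are higher on both WGP arrays, Cox6a2, Ndufaf7 and Cox7a2l are lower, and the medium arrays of Ndufa6 stand apart at 2.74 and 3.69.

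In complex I, the assembly factors moved in both directions. Ndufaf4 encodes a factor that joins early assembly intermediates of the complex. It had levels of -0.65 and -0.45 in medium and 0.49 and 0.32 with WGP, with both WGP arrays higher. It rose by 0.96 (SE 0.13, adjusted p = 0.00907), or 1.94-fold, and by 1.14 and 0.78 within the slides. Ndufaf1, which also binds early membrane arm intermediates, had 0.92 and 0.59 in medium and 1.41 and 1.39 with WGP. Its WGP arrays were both higher and it rose by 0.65 (SE 0.15, adjusted p = 0.0310), a call lost without medium replicate 2 or either WGP array (adjusted p up to 0.111).

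Ndufaf7 encodes a methyltransferase needed for assembly of the complex. Its level stood at 0.64 and 0.57 in medium and -0.56 and -0.46 with WGP. Both WGP arrays were lower and the gap was far larger than the spread within groups. It fell by 1.11 in log2 (SE 0.10, adjusted p = 0.00406), or 2.17-fold, and kept its call in all 16 alternatives, where the change ran from -1.24 to -0.54. Ndufaf2, Ndufaf3, Ndufaf5 and Ndufaf6 had changes between 0.18 and 0.56 that did not pass the test (adjusted p from 0.0625 to 0.491).

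The matrix arm binds NADH and carries the flavin and the iron-sulfur clusters. The genes that rose here encode accessory subunits. Ndufa5 had 5.72 and 5.79 in medium and 6.42 and 6.27 with WGP, and it rose by 0.59 (SE 0.11, adjusted p = 0.0182). Ndufs6, which binds zinc, rose by 0.46 (SE 0.11, adjusted p = 0.0380), and Ndufs4, which is needed for a stable complex, by 0.41 (SE 0.10, adjusted p = 0.0350). The arrays of the groups did not overlap in any of these 3 genes. With the slide as a block the calls of Ndufs6 and Ndufs4 were lost (adjusted p = 0.0520 and 0.0592). All 3 calls were lost whichever array was left out, at adjusted p up to 0.0963 for Ndufa5, 0.175 for Ndufs6 and 0.164 for Ndufs4.

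Among nuclear core subunits, which hold the redox centres or the quinone site, Ndufv1 (0.52), Ndufs8 (0.45), Ndufv2 (0.44) and Ndufs1 (0.35) had changes above 0, and Ndufs3 (-0.17) and Ndufs7 (-0.15) below 0. Their adjusted p ran from 0.0502 for Ndufv1, the flavin-binding subunit, to 0.316 for Ndufs3. Ndufv1 had 4.41 and 4.15 in medium and 4.89 and 4.71 with WGP, and was called with the slide as a block (adjusted p = 0.0382).

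Ndufa6, an accessory subunit of the LYR family that binds the acyl carrier protein, had the largest fall of all members. Its level stood at 2.74 and 3.69 in medium and 1.80 and 1.74 with WGP. Both WGP arrays were lower, but the medium arrays lay 0.95 apart, more than in any other member. The means were 3.21 ± 0.67 and 1.77 ± 0.04 (SD, n = 2), a change of -1.45 (SE 0.34, adjusted p = 0.0349), with -0.94 within slide 1 and -1.95 within slide 2. Without WGP replicate 1 or 2 the call was lost (adjusted p = 0.0916 and 0.0965). Without medium replicate 1 the change was -1.92 and without medium replicate 2 it was -0.97, both still called (adjusted p = 0.0137 and 0.0259).

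The membrane arm pumps the protons. Ndufb2 had 1.56 and 1.41 in medium and 2.23 and 2.02 with WGP, and Ndufb6 had 3.29 and 3.26 in medium and 3.94 and 3.83 with WGP. In both of these accessory subunits the WGP arrays were higher. Ndufb2 rose by 0.64 (SE 0.13, adjusted p = 0.0235) and Ndufb6 by 0.61 (SE 0.10, adjusted p = 0.0142), and second probes of Ndufb6 and of Ndufa5 changed by 0.65 and 0.49. Ndufs5 and Ndufb7, which lie on the intermembrane space side, rose by 0.51 (adjusted p = 0.0258) and 0.36 (adjusted p = 0.0492). Ndufb7 lost its call with the slide as a block (adjusted p = 0.0731). Ndufb2, Ndufs5 and Ndufb7 lost it whichever array was left out (adjusted p up to 0.103, 0.131 and 0.223), and Ndufb6 without medium replicate 2 or either WGP array (up to 0.0825).

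The other 15 membrane arm genes had changes from -0.25 (Ndufb11) to 0.44 (Ndufa8). Ndufb11 differed between its probes, with -0.25 for the brighter and -1.14 for the other, which passed the fit over probes (adjusted p = 0.0195). Among the smallest changes of all members, Ndufb3 had -0.03 (SE 0.15) and Ndufb5 0.04 (SE 0.14), with overlapping groups in both and a sign that turned under some alternatives. Ndufa13, one of the 3 brightest members, had 7.74 and 7.78 in medium and 7.88 and 7.95 with WGP, a change of 0.15 (SE 0.10, adjusted p = 0.268).

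In complex III, 3 of the 4 genes that passed the test rose. Uqcrq, a small subunit, had 6.04 and 6.16 in medium and 6.55 and 6.54 with WGP. Cyc1 encodes cytochrome c1, the haem protein that hands electrons to cytochrome c, and had 2.17 and 2.28 in medium and 2.55 and 2.68 with WGP. Both WGP arrays were higher in both genes. Uqcrq rose by 0.45 (SE 0.10, adjusted p = 0.0313) and Cyc1 by 0.39 (SE 0.11, adjusted p = 0.0497). A second probe of Uqcrq changed by 1.28 (adjusted p = 0.0338 in the fit over probes), and the mean of its probes changed by 0.86. Uqcrb, which lies near the quinone site, rose by 0.40 (SE 0.10, adjusted p = 0.0347), and its other probes changed by 0.49 and 0.62.

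Uqcrh encodes the hinge protein, which binds cytochrome c1, and it was the member of this complex that fell. It had 7.29 and 7.38 in medium and 6.95 and 6.96 with WGP, with both WGP arrays lower. It fell by 0.38 in log2 (SE 0.10, adjusted p = 0.0421), and a second probe gave -0.37. With the slide as a block the calls of all 4 were lost (adjusted p = 0.0538 for Uqcrq, 0.0620 for Cyc1, 0.0601 for Uqcrb and 0.0701 for Uqcrh). They were also lost whichever array was left out (adjusted p up to 0.140, 0.217, 0.174 and 0.176 in the same order). The core proteins Uqcrc2 (0.25) and Uqcrc1 (-0.32) and the Rieske iron-sulfur protein Uqcrfs1 (0.08) did not pass the test (adjusted p = 0.103, 0.143 and 0.774). Uqcr10 had 3 probes with changes of 0.34, 0.41 and -0.14, of which that of 0.41 passed the fit over probes (adjusted p = 0.0438).

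Subunit genes of complex IV, counting Cox7a2l, moved in both directions, with 6 that rose and 4 that fell of 17, beside 23.2% and 17.4% of all genes. Ndufa4, once assigned to complex I and now known as a subunit of complex IV, had 2.43 and 2.47 in medium and 3.19 and 3.24 with WGP. The groups stood far apart beside their spread. It rose by 0.76 (SE 0.09, adjusted p = 0.00770), or 1.70-fold, and was called in 15 of 16 alternatives. Its paralog Ndufa4l2, known as a target of hypoxia-inducible factor, had -2.65 and -2.33 in medium and -2.57 and -2.99 with WGP, a change of -0.29 (SE 0.20, adjusted p = 0.312). Cox5a and Cox5b, which sit on the matrix side, rose by 0.59 (SE 0.12, adjusted p = 0.0223) and 0.46 (SE 0.12, adjusted p = 0.0408), and Cox6c rose by 0.54 (SE 0.12, adjusted p = 0.0299). Cox5b lost its call with the slide as a block (adjusted p = 0.0675). Cox5b and Cox6c lost it whichever array was left out (adjusted p up to 0.181 and 0.137), and Cox5a without medium replicate 2 or either WGP array (up to 0.106).

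Several complex IV subunits exist in a form found in most tissues and in a form best known from 1 tissue. For subunit 6a, the general form Cox6a1 was one of the 3 brightest members, with 8.45 and 8.41 in medium and 8.74 and 8.84 with WGP. The heart and skeletal muscle form Cox6a2 had 1.05 and 0.76 in medium and -0.44 and -0.40 with WGP. The groups did not overlap in either gene and the directions were opposite. Cox6a1 rose by 0.36 (SE 0.10, adjusted p = 0.0489), and Cox6a2 fell by 1.33 in log2 (SE 0.14, adjusted p = 0.00536), or 2.51-fold, with -1.50 and -1.16 within the slides. Cox6a2 was called in all 16 alternatives, while Cox6a1 lost its call with the slide as a block (adjusted p = 0.0824) and whichever array was left out (up to 0.224).

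For subunit 7a, the general form Cox7a2 had 4.79 and 4.92 in medium and 5.29 and 5.38 with WGP, and rose by 0.48 (SE 0.10, adjusted p = 0.0285). The muscle form Cox7a1 had 2.85 and 2.83 in medium and 2.36 and 2.49 with WGP, and fell by 0.42 in log2 (SE 0.10, adjusted p = 0.0373). Both calls were lost whichever array was left out (adjusted p up to 0.138 and 0.184), and that of Cox7a1 with the slide as a block (adjusted p = 0.0620). The third gene, Cox7a2l, encodes the related protein SCAF1, which links complexes III and IV in supercomplexes and is known in a shortened form in C57BL/6 mice. Its level stood at 7.39 and 7.52 in medium and 6.41 and 6.48 with WGP, with both WGP arrays far lower. It fell by 1.01 in log2 (SE 0.10, adjusted p = 0.00534), or 2.01-fold, its other probes gave -0.97 and -0.99, and it was called in all 16 alternatives.

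For subunit 6b, the testis form Cox6b2 had 1.54 and 1.59 in medium and 0.83 and 1.11 with WGP, and fell by 0.60 in log2 (SE 0.13, adjusted p = 0.0306). The general form Cox6b1 had 2.26 and 2.40 in medium and 2.60 and 2.63 with WGP, a change of 0.29 (SE 0.10, adjusted p = 0.0926). In both genes the groups did not overlap. Cox6b2 lost its call without either medium array or without WGP replicate 1 (adjusted p up to 0.119). For subunit 4, which takes part in regulation by ATP, neither the general form Cox4i1 (0.04, SE 0.14, adjusted p = 0.813) nor the lung form Cox4i2 (-0.23, SE 0.20, adjusted p = 0.40) passed the test, and both signs turned under some alternatives. Cox8a, among the 3 brightest members, had 7.75 and 7.73 in medium and 7.98 and 7.96 with WGP, a change of 0.23 (SE 0.09, adjusted p = 0.119). Cox7c had the smallest change, of -0.002 (SE 0.10), and its second probe gave 0.44, which did not pass the fit over probes (adjusted p = 0.0633).

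**Figure D5:**
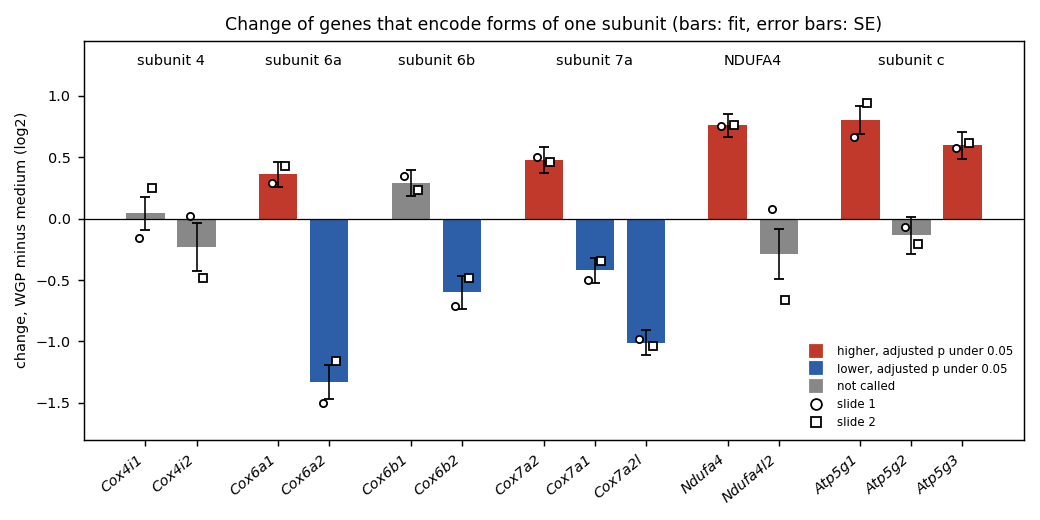
Change (y axis, log2, WGP minus medium) of genes that encode forms of the same subunit, as bars with the SE of the fit on 2 arrays per group and open symbols for the change within slide 1 and slide 2. Cox6a1 and Cox7a2 rose while Cox6a2, Cox7a1, Cox6b2 and Cox7a2l fell, and Atp5g1 and Atp5g3 rose while Atp5g2 was at -0.14 and not called.

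Of the complex IV assembly factors, Cox11, which delivers copper to the catalytic subunit, had 1.31 and 1.31 in medium and 1.96 and 2.07 with WGP. Both WGP arrays were higher and it rose by 0.71 (SE 0.10, adjusted p = 0.0102), a call lost without WGP replicate 2 (adjusted p = 0.0605). The other 5 ranged from -0.30 (Cox20) to 0.17 (Cox19) and did not pass the test. A second probe of Cox16 changed by -1.54 and passed the fit over probes (adjusted p = 0.0138), while the brighter gave -0.24.

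Genes of the same pathway outside the naming rule were described by lists, to be read beside 23.2% of all genes that rose, 17.4% that fell and their median of 0.03. Of 7 complex II genes measured, Sdhaf1, an assembly factor, rose by 0.45 and Sdhc, a membrane anchor, fell by 0.54 on the log2 scale, and 5 did not pass the test (14.3% each way, median 0.32). Of 23 other assembly factors 4 rose (Ttc19, Ecsit, Lrpprc and Uqcc2, by 0.39 to 0.90) and 4 fell (17.4% each way), with a median of 0.06. Those that fell were Coa4 (-0.64), Oxa1l (-0.65), the membrane insertase, Surf1 (-0.70), a factor for complex IV, and Cmc2 (-1.16, adjusted p = 0.00328), which fell 2.23-fold. Of 12 coenzyme Q genes 1 fell (8.33%), and the median was -0.13. No rise is counted in this list, since the only gene called higher was Coq10b. Coq10b, a coenzyme Q chaperone, was not well above background on either medium array and was at least 4.81-fold higher with WGP. This bound sets its WGP mean against the higher, on each medium array, of its own signal and the lowest signal well above background. Coq10b passed the filter only through the WGP arrays, where it is high, so no p-value is given for it. Coq5, a methyltransferase of the synthesis, fell by 0.76 on the log2 scale. It was well above background on both medium arrays and on 1 of 2 WGP arrays.

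Among 15 regulators of mitochondrial gene expression, 6 rose (40%, beside 23.2% of all genes) and 2 fell (13.3%, beside 17.4%), with a median of 0.49. Tfb2m, a mitochondrial transcription factor, rose by 1.12 (SE 0.22, adjusted p = 0.0215), Polg, the mitochondrial DNA polymerase, by 0.79, Pprc1, a coactivator, by 0.64, Gabpb1, a partner of GABPA, by 0.63, Tfam, which packs mitochondrial DNA, by 0.53 and Polrmt, the mitochondrial RNA polymerase, by 0.49. Gabpb2 fell by 0.42 and Polg2, the accessory subunit of the polymerase, by 1.15 on the log2 scale. Nrf1 and Gabpa, whose motifs were counted above, had fold sizes of 1.18 higher and 1.12 lower that did not pass the test.

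The import machinery, through which the members' proteins enter the mitochondrion, had 14 of 24 measured genes that rose (58.3%, beside 23.2% of all genes) and 0 that fell (beside 17.4%), with a median of 0.55 beside 0.03. Timm8a1, an intermembrane space chaperone, had -0.28 and -0.23 in medium and 1.11 and 1.11 with WGP, and rose by 1.37 (SE 0.09, adjusted p = 0.00252). Timm10, Timm17a, Timm23, Tomm20, Tomm40 and the matrix chaperone Hspa9 rose by 0.93 to 1.17. Of 17 carriers and modulators of respiration 6 rose (35.3%) and 4 fell (23.5%), with a median of 0.08. Gpd2, the glycerol phosphate dehydrogenase that feeds electrons to coenzyme Q, rose by 2.00 (SE 0.21, adjusted p = 0.00562), or 3.99-fold, Higd1a by 1.29, and the ADP/ATP carrier Slc25a5 by 1.19. Ucp2, an inner membrane carrier of the uncoupling protein family, fell by 1.19, Mcub, an inhibitory subunit of the calcium uniporter, by 1.04, Higd2a by 0.64 and Atpif1, the inhibitor of ATP synthase, by 0.44 on the log2 scale.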

How the data were processed

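Cy3-labelled cRNA made from total RNA was put on 1-colour Agilent arrays, as the labels' protocols say. The submitters' processing notes name Agilent Feature Extraction 10.7.3. The intensity used is the processed signal, deposited by the authors as background-subtracted intensity with no normalization between arrays, per the file headers. Log2 of it minus the array's 75th percentile (over spots that are neither controls nor outliers) was computed here. A log2 table deposited by the authors correlated with these values at r = 0.9999 over 39394 probes after centring each probe (largest difference 0.0107). Its column medians were -0.0144, 0.164 and 0.103 for medium replicates 1 to 3 and 0.0998, 0.130 and 0.100 for WGP. Its scale and direction matched, its baseline stays unknown, and it served as an alternative.

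Probes were named through their accession in the RefSeq table of GRCm38.p6 (26761 probes, 67.9%), spots of a probe were averaged, and 18443 probes were kept that exceeded background (the well-above-background flag) on both arrays of a group. The brightest kept probe stood for a gene. Groups came from the labels and were tested by lmFit and eBayes of limma 3.58.1, run in R 4.3.3, without a block, and the code was tested on simulated data. Replicate numbers are slides, per the file headers, so the slide as a block and the values within slides were also run. Deviations of arrays of a slide from the group means correlated at r = 0.14 over genes. Alternatives changed scaling, background correction, filter, probe choice, files and single arrays. The number of arrays limits precision. The values of 1 member are not reported here. Members and lists were chosen with earlier results of these data known. Named with values were, by rule, the 3 largest called changes per role, the 3 smallest changes with an SE under 0.2, the 3 brightest, the isoform sets and genes whose probes disagree in sign; further genes were named for their role or for a lost call after their values were seen.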

Additional observations from a re-analysis of the deposited data

How the results depend on the processing

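Counts of members that rose (25) and fell (7), the members' median (0.24, and 0.21 above that of all genes) and the 4442 genes changed in all were recomputed under 16 alternatives. Values that moved are given here, with medians only where 1 array was left out. With median scaling 4 members fell and the median was 0.41. With the 75th percentile over probes above background on all arrays 15 rose and the median was 0.11. With quantile normalization 13 rose (14.1%, beside 20.3% of all genes) and the median was 0.14, also 0.14 above all genes. Normexp on the median signal, chosen after seeing the data because the files hold no mean signal, gave 17 that fell with either scaling (18.5%, beside 17.5% of all genes with the 75th percentile and 19.1% with quantiles). The median was then 0.077 (0.035 above all genes) with the 75th percentile and 0.12 (0.12 above) with quantiles. With no filter on dim probes 2 members rose (2.02%, beside 4.41% of all genes) and 3 fell (3.03%, beside 3.14%). The median was then 0.103 above all genes and 1532 genes changed. The median was 0.19 above all genes with only probes above background on every array and 0.23 above with the mean of a gene's probes. With every deposited file as its own sample 55 rose (59.8%, beside 37.6% of all genes) and 15 fell (16.3%, beside 30.5%). In that setting 7453 genes changed, where n is inflated by the repeated arrays. Leaving out 1 array, which assumes that the lone array varies like the others, 4 to 15 members rose and 3 to 4 fell, the median was 0.23 to 0.27 (0.16 to 0.24 above all genes) and 2253 to 3282 genes changed. In each of these fits with 1 array left out, the share of members that rose lay below that of all genes, and so did the share that fell. With a replicate block, which pairs the arrays of a slide, 18 members rose (19.6%, beside 20.7% of all genes) and 5 fell (5.43%, beside 16.6%). The calls of Cycs, Atp5md, Cox6a2, Cox7a2l and Ndufaf7 were kept in all 16. The planned naming by gene name could not be run because the files hold no such column. The cause of these shifts was not tested. Precision is limited by 2 arrays per group.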

Other observations

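AA467197 encodes NMES1, a paralog of NDUFA4 known to replace it in complex IV of activated macrophages; it lies outside the naming rule and was looked up after the values of Ndufa4 were seen. It was not well above background on either medium array and was well above it on both WGP arrays. The medium arrays read -3.07 and -4.72 and the WGP arrays -0.28 and -0.10 (log2 level). That is at least 7.28-fold higher with WGP, by the same bound as for Coq10b, while Ndufa4 rose 1.70-fold on the same arrays. AA467197 passed the filter only through the WGP arrays, where it is high, so no p-value is given for it. Whether the proteins follow was not measured.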
